A study of Mus musculus with 25 samples.

Results

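The cortical transcriptome of 5xFAD mice given a high dose of P was compared with that of 5xFAD mice given a low dose, gene by gene. All genes with a level of at least 0.5 FPKM (fragments per kilobase of gene, scaled to the mapped fragments of the library) in at least 5 of the 10 libraries were tested, which left 14984 of the 54532 genes listed. The filter used the levels of both groups together and not their difference. Only 3 genes entered through the high-dose libraries alone, and 0 through the low-dose libraries alone. Another 24883 genes were at 0 in all 10 libraries.

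The high-dose group (AD_HighP, 5 mice) and the low-dose group (AD_LowP, 5 mice) both carried the 5xFAD transgenes, which include mutant human APP, are driven by Thy1 regulatory sequences and are therefore expressed mainly in neurons. A vehicle group of the same genotype (AD_Veh, 5 mice) and wild-type groups given vehicle or the high dose belonged to the same study, whose design text describes the tissue as cortex from separate mice. P is described as derived from a natural product. The sources used here name neither the compound nor its doses, and they are silent on treatment time and on the age of the mice. Xist and genes of the Y chromosome put replicates 1 to 3 of every group down as males and replicates 4 and 5 as females.

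In the 5xFAD cortex, amyloid plaques are surrounded by microglia that switch on a plaque-associated program of lysosomal, lipid-handling and phagocytic genes, while nearby astrocytes raise Gfap and Serpina3n. Setting one dose against another within the transgenic genotype asks whether expression differs with the amount of P given, apart from the effect of the transgenes, which both groups carry. Bulk cortex also holds neurons, oligodendrocytes, vessels and, depending on the dissection, meninges, choroid plexus or striatum, and the level of their markers varies with how much of each tissue was taken.

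The defining markers of cortical excitatory neurons (among them Slc17a7 and Neurod6), inhibitory neurons, astrocytes, oligodendrocytes, microglia and endothelium were present in all 10 libraries. Thy1, whose sequences drive the transgenes, was read at 513, 493, 437, 430 and 436 FPKM in AD_HighP 1 to 5, against 341, 413, 496, 670 and 497 FPKM in AD_LowP 1 to 5. The groups overlapped, with a log2 difference of -0.03 (SE 0.13), and vehicle-treated 5xFAD mice exceeded wild-type mice by 1.55 on the same log2 scale. Mouse App, the endogenous homolog of the transgene, averaged 146 ± 9.65 FPKM in AD_HighP and 136 ± 10 FPKM in AD_LowP (SD, n = 5 each). Its log2 difference was 0.10 (SE 0.07, unadjusted p = 0.143, limma).

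The libraries of the low-dose group were less alike than those of the high-dose group. Reads assigned to genes lay between 15518358 and 16961077 in AD_HighP and between 16577849 and 17605285 in AD_LowP (two-sided exact permutation p = 0.0635, where 5 against 5 allow a smallest p of 0.00794). AD_LowP 1 and 2 stood apart on the first principal component, which carried 33.8% of the variance, with scores of 41.5 and 48.5 against -22.2 to 4.86 in the other 8 libraries. They also had the highest shares of mitochondrial reads, at 6.69% and 6.83%, and the lowest slopes of expression on gene GC content, at -0.310 and -0.301 log2 units per 10 GC points. The typical gene of a library deviated from the median of the other libraries of its group. This deviation was 0.110 to 0.176 log2 units in the AD_HighP libraries and 0.229 to 0.298 in the AD_LowP libraries, ranges that did not overlap. AD_HighP 1 and 4 stood out in another way, with 788 and 484 FPKM of Ttr, the thyroxine carrier made by choroid plexus, against at most 16.8 FPKM in the other 8 libraries. Values without these libraries, from fits added after seeing the data, are given beside some of the named genes and lists. List medians, small and large, depended on them too: over 40 lists, the median changed sign in 19 without AD_LowP 1 and 2, in 8 without AD_HighP 1 and 4 and in 20 without all 4.

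**Figure D1:**
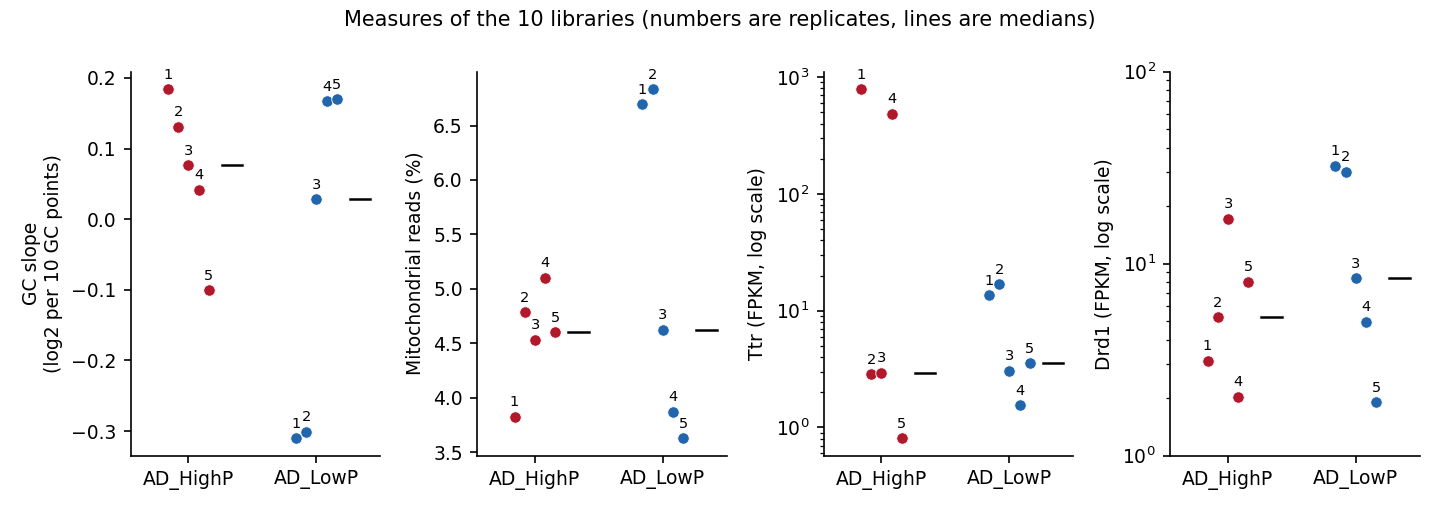
GC slope, share of mitochondrial reads, Ttr and Drd1 (log axes for the last 2) in each of the 10 libraries, with AD_HighP in red and AD_LowP in blue, replicate numbers beside the points and lines at the medians. AD_LowP 1 and 2 lie apart in GC slope, mitochondrial reads and Drd1, and AD_HighP 1 and 4 in Ttr.

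No gene passed the test between the doses. Of 14984 genes, 0 were called higher and 0 lower in AD_HighP at an adjusted p under 0.05 (0% in each direction, limma with Benjamini-Hochberg adjustment). The smallest adjusted p was 0.131. At an unadjusted p under 0.05, limma gave 557 genes higher (3.72%) and 383 lower (2.56%), which is 6.27% in all. Fitting voom to reads recovered from the FPKM values, an alternative added after seeing the data, also gave 0 calls, with 775 higher and 211 lower at that unadjusted threshold. In 76 genes (0.507%) every AD_HighP library lay above every AD_LowP library, and in 62 genes (0.414%) every one lay below, which is 0.921% in all.

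The comparison was precise for most genes. The median difference over all genes was 0.01 on the log2 scale and the median standard error 0.143. The 95% confidence interval of the difference lay within a 2-fold change in either direction for 13990 genes (93.4%) and within 1.5-fold for 11027 genes (73.6%). Absolute differences reached 1 log2 unit in 59 genes and 1.5-fold in 361. A gene that misses the threshold is not thereby shown to be equal at both doses, and the intervals given with the genes below say how large a difference remains possible.

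**Figure D2:**
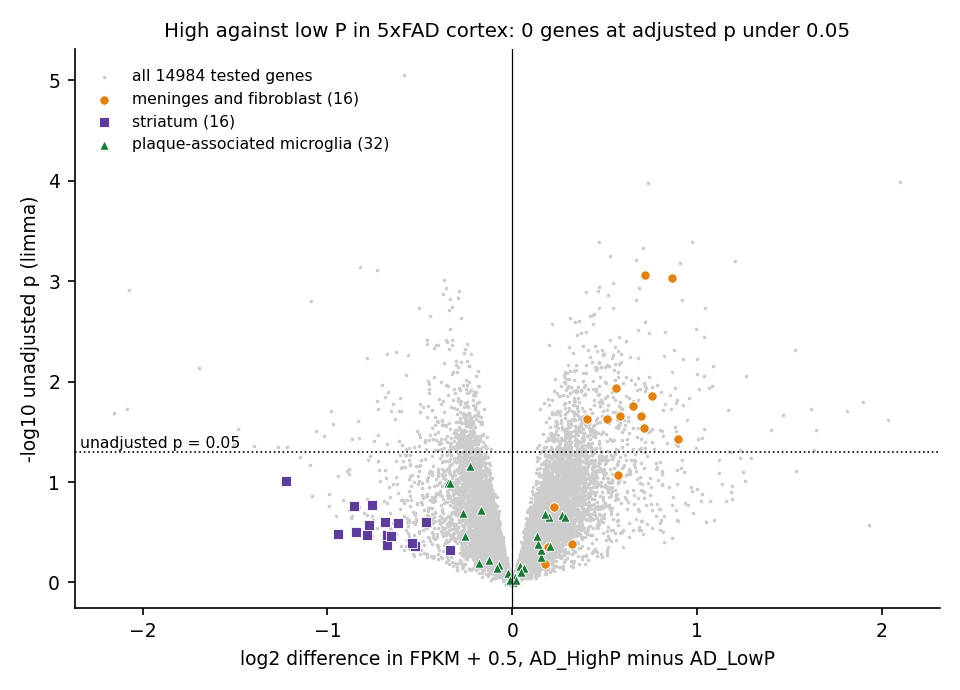
Each point is 1 of 14984 tested genes, with the log2 difference between AD_HighP and AD_LowP on the x axis and the -log10 of the unadjusted limma p on the y axis. The 16 meninges and fibroblast genes (orange) lie right of 0, the 16 striatal genes (purple) left of 0, and the 32 plaque-associated microglia genes (green) on both sides, and 0 genes passed after adjustment.

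Among the named genes, 3 are microRNA genes, whose annotated hairpins are shorter than the cDNA fragments selected for sequencing, so their levels rest on few reads and are uncertain. Reads in Mir124a-3 (chromosome 2, 180894040 to 180894107 in mm10), 1 of the loci of the brain-enriched miR-124, numbered 3, 4, 6, 5 and 2 in AD_HighP 1 to 5, against 0, 0, 1, 0 and 3 in AD_LowP 1 to 5, while all 5 AD_Veh libraries had 0. The 20 and 4 reads give a 5.22-fold higher rate in AD_HighP with a 95% counting interval of 1.75 to 21, and adjusted p = 0.527 in limma. The long noncoding gene Gm27032, which begins at the end of Mir124a-3 on the same strand in GENCODE M21, had 4.73 to 7.36 FPKM in AD_HighP and 1.73 to 5.85 FPKM in AD_LowP (log2 difference 0.89, SE 0.34, unadjusted p = 0.0153). In AD_Veh, Gm27032 had 1.03 to 8.24 FPKM, a range that spans those of both dose groups. The host transcripts of the other miR-124 loci had log2 differences of 0.36 (SE 0.19) for Mir124a-1hg and 0.04 (SE 0.12) for Mir124-2hg. The hairpin Mir124a-2 averaged 0.861 FPKM in AD_HighP and 1.35 FPKM in AD_LowP (log2 difference -0.13, SE 0.63). Gm27032, Mir124-2hg, Mir124a-2 and the Focad values of the next paragraph lie outside the naming rule and were added after values were seen.

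Mir491 (chromosome 4, 88122040 to 88122125, + strand) went the other way, with 0, 0, 1, 0 and 0 reads in AD_HighP 1 to 5, against 4, 6, 1, 4 and 2 reads in AD_LowP 1 to 5. The AD_Veh libraries held 2 reads in all. The hairpin lies in an intron of Focad in the GENCODE M21 annotation, on the same strand, and Focad itself averaged 2.35 ± 0.236 FPKM in AD_HighP and 2.65 ± 0.309 FPKM in AD_LowP (log2 difference -0.14, SE 0.13). The mature products of Mir491 are shown because a difference in hairpin reads does not show which arm, if either, is present. Both come from RefSeq on GRCm38.p6, with the seed (bases 2 to 8) in capitals, at chr4:88122057-88122078 and chr4:88122091-88122112 of the + strand.
mmu-miR-491-5p: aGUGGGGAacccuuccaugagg
mmu-miR-491-3p: cUUAUGCAagauucccuucuac
The seeds of the 2 arms differ, and Mir491 was not called (log2 difference -2.07, SE 0.57, adjusted p = 0.76, limma). The third microRNA gene, Mir7220, had 12, 0, 3, 7 and 1 reads in AD_HighP 1 to 5, against 18, 9, 19, 8 and 13 reads in AD_LowP 1 to 5, so that the groups overlapped.

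The protein-coding genes with the smallest unadjusted p on the higher side included secreted and vascular genes. Fcgrt, which encodes the neonatal Fc receptor that recycles IgG and albumin, was read at 8.38, 7.35, 7.61, 8.05 and 6.46 FPKM in AD_HighP 1 to 5, against 4.21, 5.02, 4.99, 6.4 and 4.99 FPKM in AD_LowP 1 to 5. Every high-dose library lay above every low-dose library, by a log2 difference of 0.53 (SE 0.13, unadjusted p = 0.000559, adjusted p = 0.76, limma). Igfbp2, a binding protein of insulin-like growth factors, had 30.8, 15.5, 13.8, 27.5 and 16.3 FPKM in AD_HighP 1 to 5, against 9.27, 9.16, 12.9, 13.5 and 8.99 FPKM in AD_LowP 1 to 5. The groups did not overlap (log2 difference 0.86, SE 0.23), and the 2 highest values came from AD_HighP 1 and 4, the libraries with high Ttr. Without them the log2 difference of Igfbp2 was 0.50.

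Tnfsf12, which encodes the cytokine TWEAK, averaged 2.90 ± 0.571 FPKM in AD_HighP and 1.59 ± 0.428 FPKM in AD_LowP (log2 difference 0.71, SE 0.17). The lipid carrier Pltp averaged 24.7 ± 3.82 FPKM in AD_HighP and 16.8 ± 2.58 FPKM in AD_LowP (log2 difference 0.55, SE 0.15), and in each of these genes 1 low-dose library reached into the high-dose range. Gja4, the connexin of arterial endothelium, had a log2 difference of 0.68 (SE 0.19), the histone deacetylase Hdac1 0.47 (SE 0.13) and the secreted C1qtnf12 0.54 (SE 0.15), all without overlap. Saysd1, with 1.93 to 2.90 FPKM in AD_HighP and 1.24 to 1.76 FPKM in AD_LowP, had 0.47 (SE 0.11). Urb1, a ribosome biogenesis factor, P3h3, a collagen prolyl hydroxylase, Tmem88, Tmem204 and the histone gene Hist2h2be completed the 15 and had log2 differences between 0.40 and 0.67. None of these 15 genes passed after adjustment.

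On the lower side, the smallest p of all belonged to Gm8822, a processed pseudogene outside the naming rule, at 0.928, 1.14, 1.02, 0.790 and 1.09 FPKM in AD_HighP 1 to 5, against 1.61, 1.71, 1.90, 2.16 and 1.34 FPKM in AD_LowP 1 to 5 (log2 difference -0.58, SE 0.10, adjusted p = 0.131, limma). As a pseudogene it shares sequence with its parent gene, and its level is uncertain. Nrip3 had 20.5, 21.6, 19.9, 21.5 and 21.4 FPKM in AD_HighP 1 to 5, against 25, 27.9, 27, 26.1 and 27.3 FPKM in AD_LowP 1 to 5. The 2 groups were each tight and did not overlap, with the AD_Veh mean between theirs, and the log2 difference was -0.34 (SE 0.09, unadjusted p = 0.00151, adjusted p = 0.76, limma).

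Vav1, a guanine nucleotide exchange factor of blood-lineage cells and microglia, had 1.67, 1.77, 1.94, 1.73 and 1.26 FPKM in AD_HighP 1 to 5, against 2.34, 3.03, 2.65, 2.95 and 1.98 FPKM in AD_LowP 1 to 5. No library of 1 group entered the range of the other (log2 difference -0.50, SE 0.14), and in the same fit AD_Veh exceeded WT_Veh by 1.40 log2 units. Rad50, a component of the DNA double-strand break repair complex, averaged 3.46 ± 0.262 FPKM in AD_HighP and 4.64 ± 0.774 FPKM in AD_LowP (log2 difference -0.37, SE 0.10). Slc35f3, Hacd2, an enzyme of very long chain fatty acid elongation, Naa30, the catalytic subunit of an N-terminal acetyltransferase, the golgin Gcc1, the kinase Dstyk, Tada1 and the chromatin reader Ing3 were lower without overlap, with log2 differences between -0.36 and -0.28. Sorcs1, a sorting receptor of the Vps10p family, R3hcc1l and Phospho2 had overlapping groups and log2 differences between -0.46 and -0.37. Rpl9-ps6 (log2 difference -1.09, SE 0.30) is a copy of a ribosomal protein gene, so its level is uncertain.

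**Figure D3:**
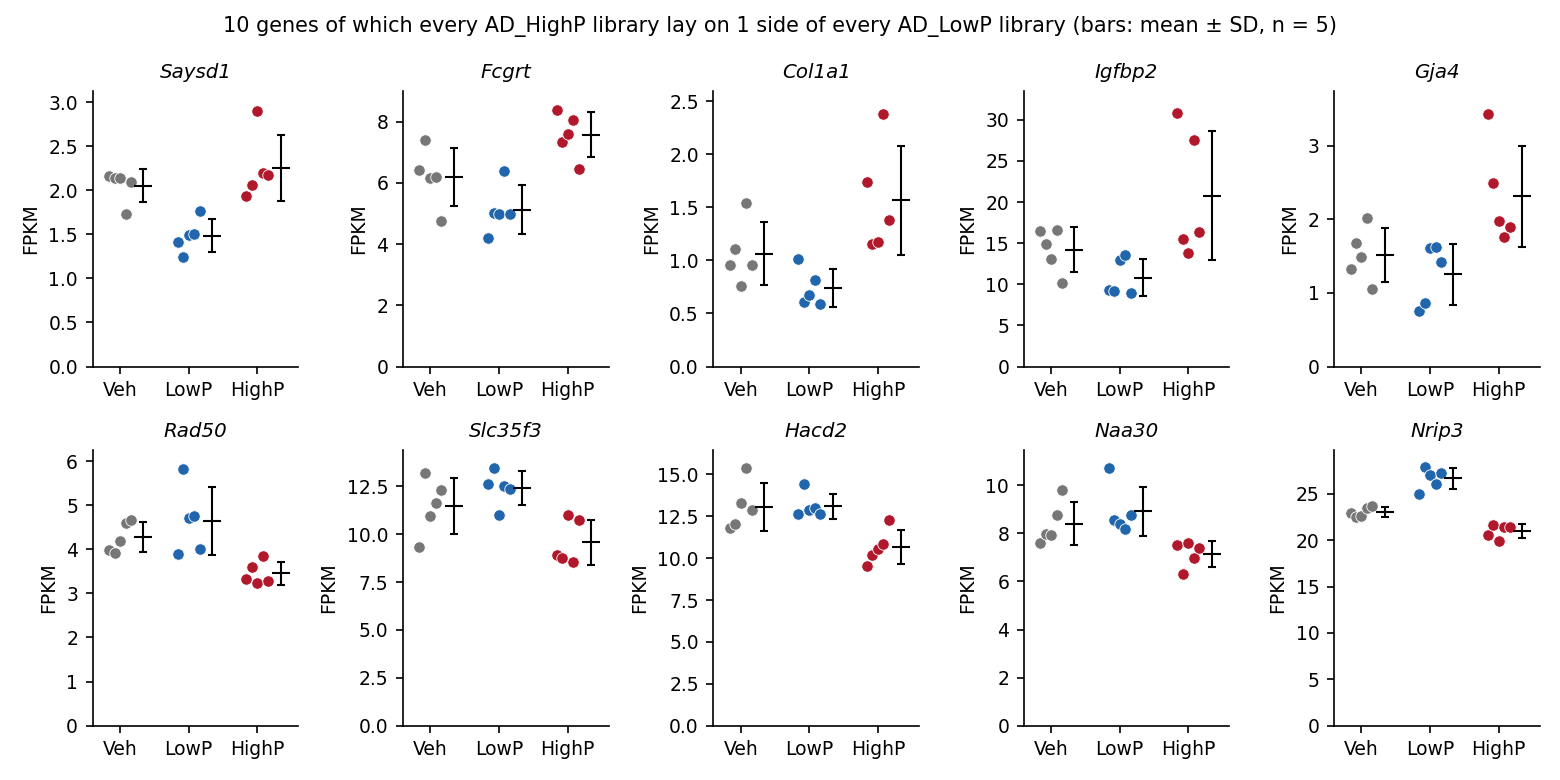
FPKM in the AD_Veh (grey), AD_LowP (blue) and AD_HighP (red) libraries of 10 genes, which are the 5 protein-coding genes with the smallest unadjusted p in each direction among those named whose AD_HighP and AD_LowP libraries did not overlap (mean ± SD, n = 5). They were picked for that separation, and after adjustment over 14984 genes all 10 had an adjusted p of 0.76.

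Genes of the plaque response differed little between the doses. In the plaque-associated microglia list, 0 of 32 tested members were called and the median log2 difference was 0.01, as over all tested genes, with members between -0.35 and 0.29. Cst7, a lysosomal cystatin of plaque-associated microglia, had 33, 57, 34.2, 64.6 and 39.4 FPKM in AD_HighP 1 to 5, against 39.7, 51.1, 23.1, 32.9 and 52.1 FPKM in AD_LowP 1 to 5. The groups overlapped almost fully (log2 difference 0.20, 95% confidence interval -0.33 to 0.73). Trem2, the lipid-sensing receptor needed for that program, averaged 12.4 ± 2.56 FPKM in AD_HighP and 11.1 ± 1.82 FPKM in AD_LowP, with an interval of -0.21 to 0.48. The lysosomal protease Ctsd averaged 217 ± 32.6 FPKM in AD_HighP and 215 ± 20.7 FPKM in AD_LowP, with an interval of -0.24 to 0.24, and the integrin Itgax had an interval of -0.44 to 0.42. Cst7, Trem2, Ctsd, Itgax and the Apoe, Gfap, C1qa, Cd74 and Clec7a values lie outside the naming rule and were chosen after their values were seen.

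The members of that list with the smallest p were Hif1a (log2 difference -0.23, SE 0.12), the galectin Lgals3 (-0.34, SE 0.20) and the surface glycoprotein Cd52 (-0.35, SE 0.20). Apoe, which astrocytes secrete to carry lipid, had 394 to 771 FPKM in AD_HighP and 310 to 792 FPKM in AD_LowP (log2 difference 0.16, interval -0.39 to 0.70). Clec7a, a pattern recognition receptor, had an interval of -0.61 to 0.36. The homeostatic microglia list had 0 of 15 members called and a median of -0.04. Its growth factor receptor Csf1r averaged 32.5 ± 3.53 FPKM in AD_HighP and 37 ± 5.87 FPKM in AD_LowP, and the purinergic receptor gene P2ry12 had a log2 difference of -0.01 (SE 0.16).

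Among complement genes, 0 of 13 were called and the median was 0.02, which was -0.15 without AD_LowP 1 and 2. C3, the central component, had 0.327, 0.850, 0.313, 0.721 and 0.609 FPKM in AD_HighP 1 to 5, against 0.770, 0.716, 0.809, 1.12 and 1.61 FPKM in AD_LowP 1 to 5. AD_HighP 2 and 4 reached into the low-dose range (log2 difference -0.50, SE 0.19, unadjusted p = 0.0168). C1qa, a chain of the initiating C1q complex, averaged 84.6 ± 18.3 FPKM in AD_HighP and 86.2 ± 30.7 FPKM in AD_LowP. Of 16 cytokine and innate sensor genes, 0 were called, 3 were lower at an unadjusted p under 0.05, against 2.56% of all tested genes, and the median was -0.08. These 3 were the Toll-like receptors Tlr2 (2.24 ± 0.531 FPKM in AD_HighP and 3.16 ± 0.641 FPKM in AD_LowP, log2 difference -0.42, SE 0.14) and Tlr7 (log2 difference -0.41, SE 0.19) and the inflammasome adaptor Pycard (log2 difference -0.34, SE 0.16).

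Interferon response genes (0 of 24 called, median 0.07) and antigen presentation genes (0 of 19 called, median 0.06) showed small differences of both signs. Without all 4 libraries that stood apart, the antigen presentation median was -0.11, with 5 of 19 above 0. The antiviral kinase Eif2ak2 had a log2 difference of -0.42 (SE 0.15, unadjusted p = 0.00902) and the membrane protein Ifitm3 one of 0.37 (SE 0.21). Cd74, a chaperone of MHC class II molecules, averaged 20.7 ± 15.4 FPKM in AD_HighP and 17.3 ± 3.29 FPKM in AD_LowP, where AD_HighP 4 alone had 47.3 FPKM. In the reactive astrocyte list, 0 of 18 were called and the median was 0.01. Without AD_LowP 1 and 2 that median was -0.12, and without all 4 it was -0.16. Gfap, the astrocyte intermediate filament, had 215, 348, 241, 278 and 262 FPKM in AD_HighP 1 to 5, against 214, 213, 365, 375 and 318 FPKM in AD_LowP 1 to 5. These overlapped (log2 difference -0.12, interval -0.55 to 0.31), as did Serpina3n, a secreted protease inhibitor, with 43.1 ± 14.6 FPKM in AD_HighP and 57.7 ± 17.7 FPKM in AD_LowP (log2 difference -0.42, SE 0.26). General astrocyte markers had a median of 0.01 with 0 of 16 called.

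The genes that separated the genotypes in these libraries gave a wider view. Of the tested genes, 467 (3.12%) were called higher and 39 (0.26%) lower in AD_Veh than in WT_Veh. The 467 genes had a median log2 difference of 0.86 between the genotypes and of -0.02 between AD_HighP and AD_LowP, where 210 were above 0. Between the doses, 6 of them were higher and 17 lower at an unadjusted p under 0.05, against 3.72% and 2.56% of all tested genes, and the 95% interval lay within 2-fold for 456. The 39 genes had a median of 0.13 between the doses, with 29 above 0 and 4 higher at an unadjusted p under 0.05, against 3.72% of all tested genes. Both sets were chosen by a contrast that holds neither dose group.

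Markers of tissue around the cortex showed the larger list medians. In bulk tissue, fewer cells of a type and less RNA per cell cannot be told apart. Of 16 tested meninges and fibroblast genes, 0 were called, all 16 were above 0 and 11 were higher at an unadjusted p under 0.05, against 3.72% of all tested genes, with a median of 0.58. The summed level of the list lay between 51.1 and 124 FPKM in AD_HighP and between 37.7 and 60.2 FPKM in AD_LowP. Col1a1, a chain of fibrillar collagen, had 1.73, 1.15, 1.17, 2.38 and 1.38 FPKM in AD_HighP 1 to 5, against 1.01, 0.604, 0.671, 0.817 and 0.586 FPKM in AD_LowP 1 to 5. All high-dose libraries were above all low-dose libraries (log2 difference 0.72, SE 0.19, unadjusted p = 0.000859). Slc6a13, a GABA and taurine transporter of the leptomeninges, had a log2 difference of 0.76 (SE 0.29) and Islr one of 0.56 (SE 0.20), while the proteoglycan gene Dcn had one of 0.18 (SE 0.39), with AD_LowP 4 highest at 6.65 FPKM.

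The meningeal values moved with the libraries that stood apart. Without AD_HighP 1 and 4, the median was 0.40, 14 of 16 were above 0 and 2 were higher at an unadjusted p under 0.05. Without AD_LowP 1 and 2 it was 0.74, and without all 4 libraries it was 0.52 with 5 higher at that threshold. The choroid plexus list had 4 tested members, all above 0, with a median of 0.77 and 0 called, and a summed level between 49.5 and 945 FPKM in AD_HighP and between 30.7 and 80.4 FPKM in AD_LowP. Its median was -0.37 without AD_HighP 1 and 4 and 0.04 without all 4. Its defining markers Folr1 and Kl did not pass the filter, and Folr1 was at 4.20 and 2.42 FPKM in AD_HighP 1 and 4 and at most 0.354 FPKM in the other 8 libraries. Enpp2, a lysophospholipase made by choroid plexus and oligodendrocytes, reached 114 and 113 FPKM in AD_HighP 1 and 4, against 26.8 to 60.9 FPKM in the other libraries. Without AD_HighP 1 and 4 the log2 differences were 0.25 for Enpp2, 0.50 for Col1a1, 0.49 for Slc6a13 and 0.47 for Pltp. The part of choroid plexus or meningeal tissue in the differences of Igfbp2, Col1a1 and Pltp was not tested.

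Vessel genes had 0 of 19 called and a median of 0.07, with 3 higher at an unadjusted p under 0.05, against 3.72% of all tested genes. The contractile genes of smooth muscle led them, with Acta2 at 6.06 to 17.3 FPKM in AD_HighP and 3.49 to 8.40 FPKM in AD_LowP (log2 difference 0.68, SE 0.23) and Myh11 at 0.52 (SE 0.17). The endothelial junction gene Cldn5 had 0.42 (SE 0.27), the endothelial receptor Flt1 -0.06 (SE 0.12) and the pericyte marker Rgs5 -0.02 (SE 0.14).

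Striatal genes had the opposite sign. Of 16 tested, 0 were called and 0 were above 0, with a median of -0.68. Drd1, the dopamine receptor of direct-pathway striatal neurons, had 3.12, 5.27, 17.2, 2.03 and 8.06 FPKM in AD_HighP 1 to 5, against 32.4, 30.1, 8.43, 4.98 and 1.90 FPKM in AD_LowP 1 to 5. The highest values were in AD_LowP 1 and 2 and the ranges overlapped (log2 difference -0.78, SE 0.68), as they did for Drd2 (-0.94, SE 0.94) and the opioid precursor Penk (-1.22, SE 0.71). The summed level of the list varied between 120 and 719 FPKM in AD_HighP and between 123 and 876 FPKM in AD_LowP. Without AD_LowP 1 and 2 the median was 0.15, and without all 4 libraries it was 0.94 with 16 of 16 above 0, so its direction depended on which libraries were kept. Drd1 had a log2 difference of 0.30, Drd2 one of 0.33 and Penk one of -0.37 without AD_LowP 1 and 2.

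**Figure D4:**
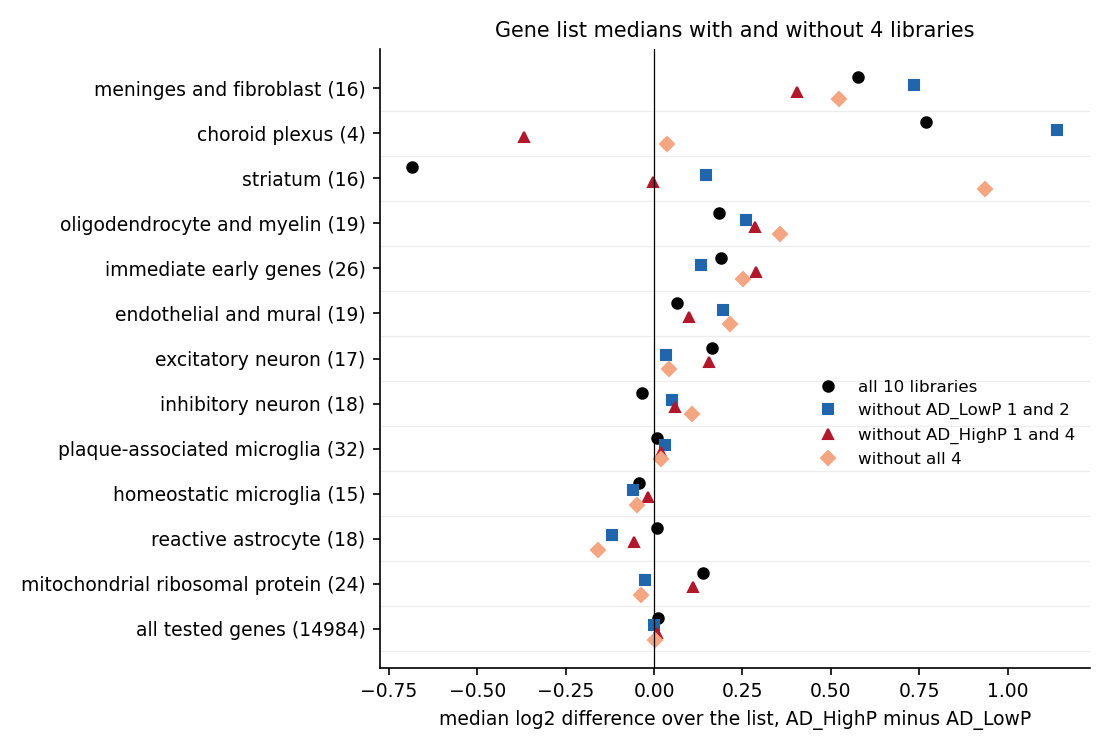
Median log2 difference between AD_HighP and AD_LowP over 12 gene lists and all tested genes (tested members in brackets), with all 10 libraries (black) and without the libraries that stood apart. The striatal median lies at -0.68 with all libraries and at 0.94 without all 4, the meningeal median stays above 0 in each setting shown, and the microglial medians stay near 0.

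Cortical neuron genes differed little. Excitatory markers had 0 of 17 called and a median of 0.16, inhibitory markers 0 of 18 and -0.03, and synapse genes 0 of 25 and 0.01. Gad2, which makes GABA, had 27.1, 29.1, 38.8, 27.2 and 37.8 FPKM in AD_HighP 1 to 5, against 79.9, 64.6, 35.5, 36.9 and 30.2 FPKM in AD_LowP 1 to 5. Its high values were in AD_LowP 1 and 2 (log2 difference -0.53, SE 0.25, unadjusted p = 0.0449), the libraries with the highest Drd1, and Slc17a7, the vesicular glutamate transporter of cortical excitatory neurons, was lowest there, at 161 and 172 FPKM. The log2 difference of Gad2 was -0.11 without AD_LowP 1 and 2. Stx1a, the syntaxin of synaptic vesicle fusion, averaged 105 ± 10.5 FPKM in AD_HighP and 72.8 ± 20.1 FPKM in AD_LowP (log2 difference 0.57, SE 0.20, unadjusted p = 0.00908), and its log2 difference was 0.31 without AD_LowP 1 and 2. The AMPA receptor subunit Gria1 averaged 52.4 ± 2.77 FPKM in AD_HighP and 64.4 ± 8.48 FPKM in AD_LowP, without overlap (log2 difference -0.29, SE 0.13). The scaffold Dlg4 had 0.16 (SE 0.11), and hippocampal (0 of 9 called, median 0.04) and thalamic or hypothalamic genes (0 of 11 called, median -0.20) were not called either.

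Immediate early genes, which neurons switch on with activity, had 0 of 26 called, 20 above 0 and a median of 0.19. Ier2 had 7.93, 10.9, 11.7, 9.82 and 6.75 FPKM in AD_HighP 1 to 5, against 4.32, 2.42, 6.02, 3.67 and 10.1 FPKM in AD_LowP 1 to 5. AD_LowP 5 alone reached into the high-dose range (log2 difference 0.89, SE 0.39, unadjusted p = 0.0313). The activity-dependent transcription factor Npas4 averaged 5.84 ± 2.03 FPKM in AD_HighP and 3.03 ± 1.60 FPKM in AD_LowP (log2 difference 0.89, SE 0.41), and Junb averaged 39.6 ± 12.8 FPKM in AD_HighP and 26.7 ± 10.9 FPKM in AD_LowP (0.57, SE 0.27).

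Oligodendrocyte and myelin genes had 0 of 19 called, 18 above 0 and a median of 0.18. Mbp, a structural protein gene of myelin, averaged 283 ± 60.7 FPKM in AD_HighP and 258 ± 78.5 FPKM in AD_LowP (log2 difference 0.17, SE 0.27). The larger differences belonged to Enpp2 (0.72, SE 0.33) and to the prostaglandin D synthase Ptgds (0.62, SE 0.26, and 0.37 without AD_HighP 1 and 4), which meninges and choroid plexus also express. Ptgds reached 649 FPKM in AD_HighP 4, against 178 to 334 FPKM in the other 9 libraries. Oligodendrocyte precursor genes had a median of -0.02 and 0 of 12 called, with Pdgfra at 5.94 ± 0.396 FPKM in AD_HighP and 6.04 ± 1.07 FPKM in AD_LowP.

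The share of mitochondrial reads was highest in AD_LowP 1 and 2. Mitochondrial reads made up 4.57% ± 0.470 of AD_HighP libraries and 5.13% ± 1.54 of AD_LowP libraries (SD, n = 5 each, two-sided exact permutation p = 0.452). Without AD_LowP 1 and 2 the difference had the opposite sign, with 0.529 percentage points more in AD_HighP (exact p = 0.232). Of 13 mitochondrially encoded protein genes, 0 were called and the median was -0.11. Their median was 0.15 without AD_LowP 1 and 2, with 11 of 13 above 0. mt-Nd3, a subunit of respiratory complex I, had 34.5, 37.7, 38.2, 46.4 and 38.7 FPKM in AD_HighP 1 to 5, against 96.5, 105, 55.6, 44.7 and 39.5 FPKM in AD_LowP 1 to 5. The ranges met at AD_HighP 4 and AD_LowP 4 and 5 (log2 difference -0.69, SE 0.26, unadjusted p = 0.0142), and the log2 difference was -0.24 without AD_LowP 1 and 2. In mt-Co2, a subunit gene of cytochrome c oxidase, the log2 difference was 0.34 (SE 0.17). mt-Atp8, a subunit gene of ATP synthase, was lowest in AD_LowP 1 and 2, with 3.69 to 7.43 FPKM in AD_HighP, against 2.57, 0.821, 4.73, 6.71 and 4.57 FPKM in AD_LowP 1 to 5 (log2 difference 0.69, SE 0.41, and 0.09 without AD_LowP 1 and 2).

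Nuclear genes of oxidative phosphorylation had 0 of 50 called and a median of 0.04, and the 95% interval lay within 1.5-fold for 45 of them. The complex II subunits Sdhc (0.17, SE 0.07) and Sdha (-0.12, SE 0.05) had opposite signs. Mitochondrial ribosomal protein genes had 0 of 24 called, 20 above 0 and a median of 0.14, which was -0.03 without AD_LowP 1 and 2. Cytosolic ribosomal protein genes had 0 of 50 called and a median of -0.04, and glycolysis and citric acid cycle genes 0 of 27 called and a median of 0.01. Proteasome genes had 0 of 25 called and a median of -0.04. The ATPase subunit Psmc1 of the proteasome averaged 49.4 ± 1.68 FPKM in AD_HighP and 56.4 ± 4.82 FPKM in AD_LowP, without overlap (log2 difference -0.19, SE 0.07, unadjusted p = 0.0112).

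In the stress lists, 3 members of the integrated stress response were higher at an unadjusted p under 0.05, against 3.72% of all tested genes, and 0 of 24 members were called (median -0.04). Chac1, a glutathione-degrading enzyme induced by the transcription factor Atf4, had 5.51, 5.30, 5.61, 4.74 and 5.32 FPKM in AD_HighP 1 to 5, against 3.31, 3.78, 3.90, 4.46 and 2.96 FPKM in AD_LowP 1 to 5. The groups did not overlap (log2 difference 0.48, SE 0.18, unadjusted p = 0.0152), whereas Atf4 (0.34, SE 0.14) and Atf5 (0.48, SE 0.16) did. Heat shock genes had 0 of 19 called and a median of -0.09, with the chaperone Hsp90aa1 at 243 ± 31.1 FPKM in AD_HighP and 288 ± 40.7 FPKM in AD_LowP (-0.24, SE 0.11) and the co-chaperones Stip1 (-0.20, SE 0.08) and Bag3 (0.32, SE 0.15). Antioxidant genes had 0 of 25 called and a median of 0.00, with catalase, Cat, at 0.22 (SE 0.10) and the glutathione synthetase Gss at -0.25 (SE 0.11).

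Genes of amyloid precursor protein processing and clearance had 0 of 25 called and a median of 0.02. Psenen, a subunit of γ-secretase, averaged 20.7 ± 1.29 FPKM in AD_HighP and 16.6 ± 5.42 FPKM in AD_LowP (log2 difference 0.37, SE 0.17), and another subunit gene, Aph1b, had -0.22 (SE 0.10). Without AD_LowP 1 and 2 these log2 differences were 0.23 for Psenen and -0.01 for Aph1b. Abca1, the transporter that loads Apoe with lipid, averaged 6.08 ± 1.01 FPKM in AD_HighP and 7.63 ± 0.995 FPKM in AD_LowP (-0.31, SE 0.12, unadjusted p = 0.0129). Cholesterol synthesis genes had 0 of 25 called and a median of 0.05, and autophagy and lysosome genes 0 of 36 called and 0.01, with the interval within 1.5-fold for 35 of 36. The autophagosome protein gene Map1lc3b had 0.21 (SE 0.09).

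The circadian clock list had 0 of 18 called and a median of 0.02. Its output gene Dbp averaged 32.5 ± 3.52 FPKM in AD_HighP and 25.8 ± 9.06 FPKM in AD_LowP (log2 difference 0.39, SE 0.18, and 0.09 without AD_LowP 1 and 2). Glucocorticoid response genes had 0 of 17 called and a median of -0.12, with the chaperone Fkbp5 at 3.16 ± 0.704 FPKM in AD_HighP and 4.63 ± 1.91 FPKM in AD_LowP (-0.44, SE 0.17). Insulin and growth factor signalling (0 of 24 called, median -0.04), voltage-gated channel genes (0 of 22, 0.01), splicing kinase and retained-intron transcripts (0 of 24, -0.03), long noncoding RNAs (0 of 12, 0.06) and red blood cell genes (0 of 6, 0.05) gave no call. Of 16 blood leukocyte genes, Cd4 alone was tested, with a log2 difference of -0.44 (SE 0.72), which was 0.58 without AD_LowP 1 and 2.

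Each dose was also set against vehicle in the same genotype, and since both comparisons share the AD_Veh libraries their values are given side by side only. AD_HighP against AD_Veh gave 1 gene called higher (0.00667%) and 0 lower, and AD_LowP against AD_Veh gave 0 in each direction. The filter had used the AD_HighP and AD_LowP libraries and no AD_Veh library, so genes present in vehicle alone could not enter. The called gene was Mir124a-3 (adjusted p = 0.0176, limma), with 20 reads in AD_HighP against 0 in AD_Veh. Mir124a-3 entered through the dose groups, mainly AD_HighP, where it is high, so the filter favoured this call. Taking 3 reads over the vehicle group as the floor, the rate in AD_HighP was 6.61-fold higher. That ratio leaves out the counting error of the 20 reads and is not a lower bound. The plaque-associated microglia list had a median of -0.26 in AD_HighP minus AD_Veh and of -0.26 in AD_LowP minus AD_Veh. The reactive astrocyte list had -0.17 for the high dose and -0.18 for the low dose, the complement list -0.18 for the high and -0.17 for the low dose, and the antigen presentation list -0.18 for the high and -0.23 for the low dose. Serpina3n averaged 71.8 FPKM in AD_Veh, 57.7 in AD_LowP and 43.1 in AD_HighP, in the order of dose but not called in either comparison. Its log2 difference between the doses was -0.686 without AD_LowP 1 and 2 and -0.185 without AD_HighP 1 and 4. Cst7 averaged 56.8 FPKM in AD_Veh, 39.8 in AD_LowP and 45.6 in AD_HighP, which is not the order of dose. Vav1 averaged 2.89 FPKM in AD_Veh, 2.59 in AD_LowP and 1.67 in AD_HighP. For the striatal list the medians against vehicle were -1.72 for the high dose and -1.02 for the low dose, and for the meningeal list 0.47 for the high dose and -0.09 for the low dose.

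The dose comparison gave other counts within the sexes. In males alone (3 against 3), 284 genes were called higher (1.9%) and 123 lower (0.821%) in AD_HighP, 2.72% in all, and in females alone (2 against 2) 1 gene of 14984 was called (0.00667%), the short Gm23493. These fits took in the males, or the females, of all 5 groups, so their spread also came from vehicle and wild-type mice. The difference of the dose effect between the sexes, tested as an interaction added after seeing the data, was called for 862 genes (5.75%), of which 555 were more positive in males (3.7%) and 307 more negative (2.05%). All 407 genes called in males separated the 3 AD_HighP males from the 3 AD_LowP males. That separation is no further evidence, because the calls were made in these same libraries. Of the 407 genes, 336 had the opposite sign in females. The share of all tested genes was computed for neither count, so neither can be read as particular to the called genes. Over all tested genes, the log2 difference correlated with GC content at 0.647 in males and -0.478 in females (Spearman). AD_LowP 1 and 2, the libraries that stood apart, are 2 of the 3 low-dose males.

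Those calls moved with the GC content of the genes. The median GC content was 57.3% in the genes called higher in males, 41.6% in those called lower and 49.7% in all tested genes. The GC slope was higher in AD_HighP males (0.184, 0.131 and 0.077 log2 units per 10 points) than in AD_LowP males (-0.310, -0.301 and 0.028), and lower in AD_HighP females (0.042 and -0.101) than in AD_LowP females (0.167 and 0.170). The vehicle females AD_Veh 4 and 5 had slopes of -0.111 and -0.258 and mitochondrial read shares of 6.73% and 6.61%. Low slopes with high shares were therefore not confined to AD_LowP 1 and 2. With a GC correction per library, 11 genes were called in males, 1 in females and 3 in the interaction. The number called in males was 124 without AD_LowP 1 and 2, and with 1 male left out it ran from 5 without AD_HighP 1 to 4046 without AD_LowP 3. It was 8 without AD_HighP 2, 11 without AD_HighP 3, 92 without AD_LowP 1 and 23 without AD_LowP 2. The interaction count was 77 without AD_LowP 1 and 2, and with 1 library left out it ran from 0 without AD_HighP 5 (2481 genes at an unadjusted p under 0.05, limma) to 3445 without AD_LowP 3. It was 4 without AD_LowP 4, 62 without AD_HighP 1, 163 without AD_LowP 5, 294 without AD_LowP 2, 420 without AD_LowP 1, 437 without AD_HighP 2 and 537 without AD_HighP 3.

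Among the genes called in males, Pcsk1n, the precursor of a prohormone convertase inhibitor, had 469, 436 and 387 FPKM in AD_HighP males, against 183, 151 and 247 FPKM in AD_LowP males, and 381 and 283 FPKM in AD_HighP females, against 526 and 501 FPKM in AD_LowP females. It was higher in all high-dose males and lower in all high-dose females than in low-dose mice of the same sex. Its interaction (log2 1.82, SE 0.28, adjusted p = 0.013, limma) was called with the GC correction too (adjusted p = 0.0151). AD_Veh males had 435, 383 and 326 FPKM of Pcsk1n. AD_Veh females had 222 and 206 FPKM, below all females of both dose groups. The cytokine gene Il17d (interaction 1.94, SE 0.40), the transcription factor Cebpb (1.96, SE 0.41), the cytokine receptor chain Csf2ra (1.54, SE 0.28), the kinase inhibitor Camk2n2 (1.35, SE 0.30) and the neuropeptide gene Grp (1.57, SE 0.42) had positive interactions, and the neuropeptide gene Cort rose in males (log2 1.47, SE 0.33, adjusted p = 0.0386). Mitochondrial transcripts lay on the other side, with negative interactions of mt-Nd3 (-1.17, SE 0.30), the ribosomal RNAs mt-Rnr1 (-0.97, SE 0.22) and mt-Rnr2 (-0.92, SE 0.23) and the short tRNA genes mt-Tw, mt-Tp and mt-Tc, whose levels are uncertain. The zinc finger gene Zfp120 fell in males (log2 -0.77, SE 0.16, adjusted p = 0.0331). Of the genes named here, the interaction was called with the GC correction for Pcsk1n alone. In males with that correction, limma called Grp (log2 1.24, adjusted p = 0.0152) and Pcsk1n (0.86, adjusted p = 0.0271) higher. It called mt-Tp (-2.25, adjusted p = 0.0473) and mt-Nd3 (-0.77, adjusted p = 0.048) lower. The other genes named here, Cort and Zfp120 among them, were not called in males with it.

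By list, mitochondrial ribosomal proteins had 9 of 24 members in the interaction, all more positive in males, with medians of 0.42 in males and -0.26 in females. Nuclear oxidative phosphorylation had 13 of 50, of which 12 were more positive in males, and mitochondrially encoded genes 7 of 13, all more negative in males, against 5.75% of all tested genes. With the GC correction, 0 of these members were called in the interaction, and of mt-Nd3, Dbp, Psenen, Stx1a and Atp5d only mt-Nd3 was called in males. Mrpl57, a mitochondrial ribosomal protein gene outside the list, was called with that correction in the interaction (log2 1.25, adjusted p = 0.0313, limma). It was also called in males with it (log2 0.86, adjusted p = 0.00464, limma). Dbp had 34.7, 33.7 and 34.8 FPKM in AD_HighP males, against 19.1, 16.9 and 22 FPKM in AD_LowP males, and 32.8 and 26.3 FPKM in AD_HighP females, against 36.3 and 34.7 FPKM in AD_LowP females. It rose in males (log2 0.82, SE 0.13, adjusted p = 0.0175) and was lower in both high-dose females, without reaching the threshold there (-0.27, SE 0.20). The γ-secretase subunit gene Psenen had a log2 difference of 0.70 (SE 0.13) in males and -0.13 (SE 0.16) in females. Stx1a had 0.91 (SE 0.16) in males and 0.07 (SE 0.10) in females, and the ATP synthase subunit gene Atp5d 0.67 (SE 0.11) in males and -0.20 (SE 0.09) in females. Plaque-associated microglia genes had 0 of 32 called in males and 1 in the interaction, that of Apoe. AD_LowP 1 and 2 are both males, and without them AD_LowP 3 is the only low-dose male. With that library alone, a difference between the sexes and one between AD_LowP 1 and 2 and the rest cannot be told apart.

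**Figure D5:**
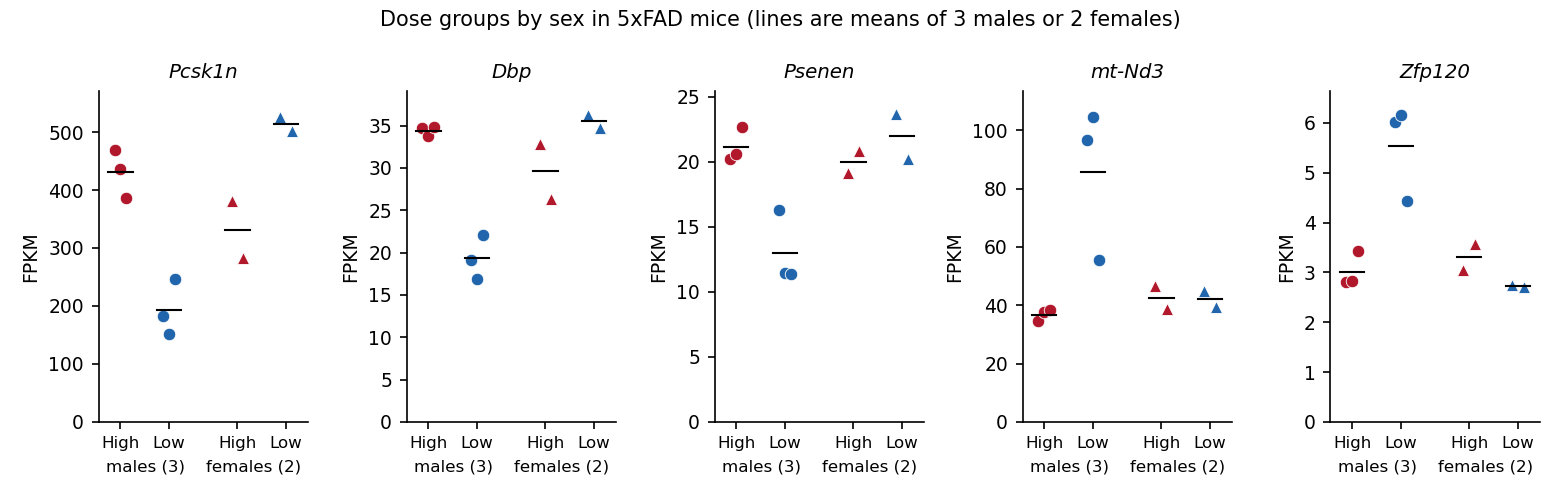
FPKM of Pcsk1n, Dbp, Psenen, mt-Nd3 and Zfp120 in high-dose (red) and low-dose (blue) 5xFAD mice, with males (circles, 3 a group) left of females (triangles, 2 a group) and lines at the means. In males the doses separate in each of the 5 genes, with mt-Nd3 and Zfp120 lower and the other 3 higher at the high dose, and in females the values lie closer together or in the opposite order.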

How the data were processed

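RNA from the cortex of 25 mice was sequenced as poly(A)-selected, strand-specific libraries with size-selected fragments, per the labels' protocols. The aligner HISAT2 and the build mm10 are named in the submitters' processing notes. Versions, the counting tool and the annotation are not stated in what was used here. The authors deposited FPKM values for 54532 genes, with a gene length in bp in a column of that table. FPKM times length gave whole reads for 100% of nonzero values within a tolerance of 0.01, so the depth of each library could be recovered. Groups and replicate numbers came from the labels.

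Values were analysed as log2(FPKM + 0.5), which understates the change of low genes. With limma 3.58.1 in R 4.3.3, a model with 1 mean for each of the 5 groups was fitted over the 25 libraries (trended variances, 20 residual degrees of freedom), and AD_HighP minus AD_LowP was tested two-sided with Benjamini-Hochberg adjustment over the 14984 genes, called at an adjusted p under 0.05. The fit was tested on simulated data. Exact tests permuted 5 against 5 libraries. GC content is that of the longest GENCODE M21 transcript and was found for 99.89% of tested genes. The limma p-values set a difference between groups against a spread between mice that is pooled over the 5 groups. That spread is of neither dose group alone: the median SD of a gene was 0.159 log2 units in AD_HighP and 0.285 in AD_LowP.

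The genes compared and the 40 lists (851 symbols, hand-written) were chosen with earlier results of these data known. Genes were named by a rule: Thy1 and App, the 15 genes per direction with the smallest p (mean of at least 1 FPKM, no unnamed models or pseudogenes), 3 per list, the 3 largest differences and cell type markers. In males, called genes were named by size. Alternatives changed the pseudocount, filter, scaling, covariates, sexes and libraries, and those without AD_LowP 1 and 2 or AD_HighP 1 and 4, with GC slope as a covariate and with voom were added after seeing the data. Counting intervals cover counting error only, and the floor leaves out the counting error of the group with reads. Results for a few genes are not reported here.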

Additional observations from a re-analysis of the deposited data

Results flagged for a closer look

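Within the groups of 5 mice, 30 of 384 groups (192 measures in each dose group) had 1 library whose gap to the nearest other library exceeded Dixon's 95% critical value, and chance gives such a gap in about 1 in 20 groups. Of these, 16 were in AD_HighP and 14 in AD_LowP. Values are FPKM.

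In AD_HighP, replicate 1 was high for Hist2h2be (4.607, the other 4 between 3.073 and 3.461) and Slc17a7 (309.7, the others 243.9 to 257.6). Replicate 2 was high for the microglial genes Csf1r (38.62, the others 29.87 to 32.27) and Cx3cr1 (27.63, the others 21.12 to 22.76) and for the oligodendrocyte factor Olig1 (113.9), and low for the calcium channel gene Cacna1c (3.756). Replicate 3 was high for the striatal genes Rgs9 (13.94, the others 1.414 to 4.322) and Serpina9 (2.176) and for Bcl11b of the excitatory neuron list (17.56). It was also high for Saysd1 (2.899) and for Mir491 (0.6938, the others at 0). Replicate 4 was high for Ptgds (648.6) and Slc6a13 (5.804), and replicate 5 for Hsp90aa1 (296.3) and Phospho2 (5.314), while it was low for Dbp (26.35).

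In AD_LowP, replicate 1 was high for Naa30 (10.71), Pdgfra (7.915) and Slc32a1 (46.27), and low for Psmc5 (70.36, the others 84.67 to 88.8). Replicate 2 was high for Hacd2 (14.43) and Gcc1 (6.271). Replicate 3 was high for Olig1 (103.7), Psmc1 (65.01) and Rps19 (18.42), and low for Sparc (40.16) and Mlc1 (38.56). Replicate 4 was high for Itgb2 (8.728) and Igf2r (6.551), and replicate 5 for Junb (45.54, the others 18.73 to 24.84).

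The dose effect differed between males and females by the test of the interaction (limma, adjusted over 14984 genes) for 23 of the named genes. As log2 effect in males minus that in females, it was more positive in males for Cebpb (1.961), Il17d (1.943), Pcsk1n (1.823), Grp (1.568), Csf2ra (1.536), Mrps34 (1.4), Camk2n2 (1.354), Mrps24 (1.171), Dbp (1.091), Atp5d (0.878), Stx1a (0.839), Psenen (0.829) and Gpx4 (0.429). It was more negative in males for mt-Tp (-3.123), mt-Tw (-3.009), mt-Tc (-1.928), mt-Nd3 (-1.167), Zfp120 (-1.005), mt-Rnr1 (-0.973), mt-Rnr2 (-0.916), Rbm25 (-0.67), Clock (-0.561) and Rpl5 (-0.418). With the GC correction, Pcsk1n alone of these 23 was called, and without AD_HighP 5 the interaction was called for 0 genes (2481 at an unadjusted p under 0.05, limma).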

How the results depend on the processing

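Between the doses, 0 genes were called higher and 0 lower (limma) under 3 pseudocounts, 4 filters, quantile and TMM scaling, array weights, a fit of the 10 libraries alone, sex as a covariate, length or GC correction, and, added after seeing the data, GC slope as a covariate, voom on recovered reads and leaving out AD_LowP 1 and 2, AD_HighP 1 and 4 or all 4. The counts at an unadjusted p under 0.05 were 262 higher and 163 lower without AD_HighP 1 and 4, 956 and 695 without AD_LowP 5, and 1072 and 659 of 29649 genes with no filter. Leaving out 1 library at a time gave 0 to 1 higher and 0 to 1 lower, the 1 of each without AD_LowP 5 being Mir124a-3 and Gm8822. Males alone gave 284 higher and 123 lower and females alone 0 higher and 1 lower, from 3 and 2 libraries in each of the 5 groups. With the replicate block, 0 were called in each direction (513 higher and 363 lower at an unadjusted p under 0.05), and 0 with the GC correction and the replicate block together. Libraries with the same number did not deviate together (correlations of -0.18, -0.018, 0.048, 0.038 and -0.319), and 0 of 5 correlated best with their own number, so they were not taken as pairs, though libraries of 1 number also share sex. For 178 named genes, 5508 values were computed over these alternatives. The sign differed in 206, none of them called, 28 passed the threshold (27 in males alone and Mir124a-3 without AD_LowP 5), and 0 called values turned round. The edgeR and DESeq2 fits were not run because the table holds FPKM. Depth limits the microRNA genes, which rest on a few reads each.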
